A study of Mus musculus with 7 samples.

Results

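Glycolytic and hypoxia-inducible genes were examined in macrophages sorted from the inflamed mouse colon. The list held 34 genes: 17 glycolytic enzymes, 5 transporters and regulators of glucose use, 11 other targets of hypoxia-inducible factor (HIF), and Hif1a, which encodes the oxygen-regulated HIF subunit. A gene counted as measured where a probe set (the group of array probes that reads 1 transcript) carried its symbol alone, and its brightest such probe set over the 7 arrays was used. By this rule 30 of the 34 genes were measured, among 22180 genes on the array. Gpi1 and Eno1 had no probe set listed, and Aldoa and Ankrd37 were read only by probe sets that name a further gene. The measured genes were 14 enzymes, 5 transporters and regulators, 10 other HIF targets and Hif1a.

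Total RNA was measured on 7 Affymetrix Mouse Gene 2.0 ST arrays, 1 for each sorted sample. All mice carried floxed alleles of Rictor (Rictorfl/fl), a subunit of the kinase complex mTORC2, and all had colitis from 5% dextran sulphate sodium (DSS) for 5 days, followed by water for 3 days. The 3 LysM+/+ samples had no cre, and the 4 LysM+/cre samples carried cre recombinase on 1 allele of Lyz2 (LysM), a lysozyme gene expressed by myeloid cells, neutrophils and monocytes included. Cells were sorted as CD45+ CD11b+ CD64+ MHCII+ Ly6C-. The sources used here give neither the age of the mice nor how many stand behind each sample. No group carried cre without floxed Rictor, so effects of Rictor loss, of cre and of its insertion into Lyz2 cannot be told apart.

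Glycolysis splits glucose into pyruvate in a chain of cytosolic reactions, and lactate dehydrogenase turns pyruvate into lactate, which is exported. HIF is a transcription factor whose alpha subunit is hydroxylated by the EGLN enzymes and degraded while oxygen is present; when oxygen falls, or when inflammatory signals stabilise it, HIF binds hypoxia response elements and induces most glycolytic enzymes, glucose and lactate transporters, angiogenic factors and its own hydroxylases. Activated macrophages are known for a shift to aerobic glycolysis that involves HIF, and the inflamed colon mucosa is known to be poor in oxygen.

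The sequence that ties these genes together is the hypoxia response element, whose core letters are ACGTG or GCGTG. The 250 bases before the start of 4 members are shown from RefSeq (assembly GRCm38.p6), 5′ to 3′ on the strand of the gene, with each core match on either strand in capitals. Egln3 and Slc16a3 had the largest differences between genotypes among the members, Pgk1 the largest among the enzymes, and Tpi1 is an enzyme of similar difference without a match. The windows are chr12:54203875-54204124 for Egln3 (minus strand), chr11:120948817-120949066 for Slc16a3 (plus), chrX:106186850-106187099 for Pgk1 (plus) and chr6:124814159-124814408 for Tpi1 (minus).
Egln3: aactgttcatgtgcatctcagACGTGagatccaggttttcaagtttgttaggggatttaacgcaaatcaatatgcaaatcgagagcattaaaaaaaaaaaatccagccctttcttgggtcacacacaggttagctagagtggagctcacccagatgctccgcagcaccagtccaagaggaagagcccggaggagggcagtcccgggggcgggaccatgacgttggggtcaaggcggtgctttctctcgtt
Slc16a3: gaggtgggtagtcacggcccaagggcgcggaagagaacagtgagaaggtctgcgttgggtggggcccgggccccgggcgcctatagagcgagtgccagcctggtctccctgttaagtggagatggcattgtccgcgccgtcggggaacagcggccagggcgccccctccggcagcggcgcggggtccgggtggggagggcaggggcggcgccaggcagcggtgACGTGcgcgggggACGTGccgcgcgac
Pgk1: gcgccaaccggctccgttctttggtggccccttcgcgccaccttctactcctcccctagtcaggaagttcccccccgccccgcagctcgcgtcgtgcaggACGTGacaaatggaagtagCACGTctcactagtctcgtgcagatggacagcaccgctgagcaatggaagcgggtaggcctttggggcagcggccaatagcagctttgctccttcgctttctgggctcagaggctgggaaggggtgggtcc
Tpi1: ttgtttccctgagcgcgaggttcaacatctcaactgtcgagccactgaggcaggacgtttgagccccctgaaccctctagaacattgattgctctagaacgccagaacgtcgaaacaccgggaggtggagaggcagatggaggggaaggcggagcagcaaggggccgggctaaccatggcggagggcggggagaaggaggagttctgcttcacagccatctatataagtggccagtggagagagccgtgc
The Egln3 window holds 1 match, 229 bases before the start. Slc16a3 has 2, at 27 and 14 bases before the start, and Pgk1 has 2, at 150 and 131 bases. None lies in the Tpi1 window.

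Promoters of 33 of the 34 members, all but Ndrg1, were in the RefSeq table, as windows from 250 bases before to 50 after each start. At least 1 core match on either strand stood in a promoter of 30 of these 33 genes (90.9%), against 46.7% of all 27025 genes in the table. The narrower word ACGTG was found in 25 of the 33 (75.8%), against 21.8% of all genes. A gene counted where any of its windows held the word, and some genes have several windows. By window, a core match stood in 79.6% of 49 member windows against 43.8% of all 32851, and ACGTG in 59.2% against 19.6%. All 10 HIF targets outside glycolysis with a promoter in the table held ACGTG in at least 1 window, and so did 11 of the 17 enzymes and 3 of the 5 transporters and regulators. For Vegfa the word lay in the window chr17:46025114-46025413, and the upstream window chr17:46032328-46032627 held 0 matches. A window of Mxi1, chr19:53310256-53310555, also held 0. On 1 strand the last G of either word can be the first base of GCGTG, so matches can overlap there, and the palindrome CACGTG, which is also a binding word of MYC family factors, holds ACGTG on both strands and occurred in 5 member genes. Member promoters were richer in G and C (median 62.3%) than all promoters (52.7%), and their part in these shares was not tested. The counts describe letters only, and no factor binding was measured here.

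The deposited values are log2 intensities, and differences are LysM+/cre minus LysM+/+, so that 1.00 is a doubling. Array medians lay between 5.16 and 5.22, and array profiles correlated at 0.972 to 0.982 within and at 0.968 to 0.977 between genotypes. Rictor itself averaged 7.76 without and 7.88 with cre (difference 0.12, SE 0.13, adjusted p = 0.749), and Lyz2 10.20 and 10.08. No source used here tells which Rictor exons are probed, so its signal does not check the deletion. The gate's own genes were bright on all arrays: the lowest single values were 10.85 for Ptprc (CD45), 11.20 for Itgam (CD11b), 9.49 for Fcgr1 (CD64) and 12.59 for H2-Ab1 (MHC class II). Each genotype has few arrays, which limits the precision of every value, and p-values measure only the spread between these samples.

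Most glycolytic and hypoxia-inducible genes had higher signals on the LysM+/cre arrays, and none passed the test after adjustment over all genes. Of the 30 measured members, 26 had a difference above 0, with a median of 0.39 against 0.004 over all genes, of which 51.4% were above 0. At an adjusted p of 0.05 (limma with Benjamini-Hochberg adjustment) 0 members were called, and 0% of all genes; the smallest adjusted p among the members was 0.341, for Mxi1. At an unadjusted p under 0.05 there were 14 members, of which 13 were higher and 1, Pfkm, was lower, where 11.5% of all genes lay at that level (6.56% higher and 4.93% lower). For 13 members every LysM+/cre array lay above every control, and for 0 below, against 8.79% of all genes (5.23% higher and 3.56% lower). In sorted bulk RNA, fewer cells of a type and less RNA per cell cannot be told apart, here or in any result that follows.

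2 arrays stood at the ends of most members. LysM+/+ array 2 held the lowest value of 20 of the 30 members (66.7%), where it was lowest for 16.5% of all genes. LysM+/cre array 1 held the highest value of 20 members (66.7%), where it was highest for 16.1% of all genes. Leaving out LysM+/+ array 2 took the members at an unadjusted p under 0.05 from 14 to 7 (6 higher and 1 lower, against 9.96% of all genes) and the median to 0.25. The count was also 7 when LysM+/cre array 1 was dropped (7.63% of all genes), 9 without LysM+/cre array 3 (10.5%) and 9 without LysM+/cre array 4 (8.53%). With LysM+/+ array 2 and LysM+/cre array 1 dropped together, a setting chosen after seeing the data, it was 5 (7.72% of all genes). The heat map of member values shows these 2 columns.

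**Figure D1:**
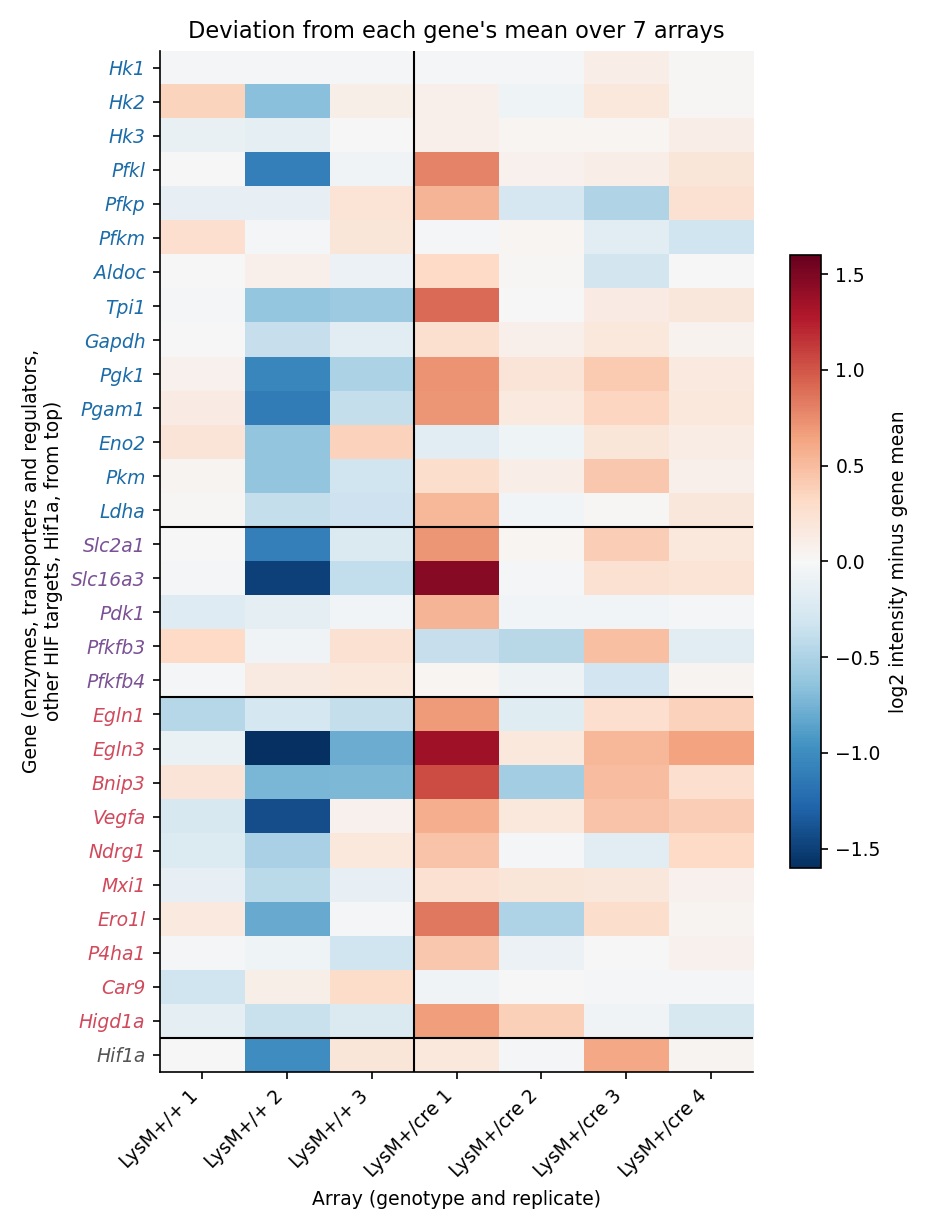
Each cell is 1 member (rows, grouped by role) on 1 array (columns), coloured by its log2 intensity minus the gene's mean over the 7 arrays; blue is lower and red higher. LysM+/+ array 2 is the lowest array for 20 of the 30 members and LysM+/cre array 1 the highest for 20.

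In the first steps of glycolysis, of which Gpi1 and Aldoa were not measured, differences lay between -0.27 and 0.15 except for Pfkl (0.67). The 3 hexokinase genes encode the enzymes that trap glucose in the cell as its phosphate. Hk3, the isoform of myeloid cells, had values of 7.49, 7.47 and 7.60 without cre and 7.69, 7.64, 7.64 and 7.71 with cre. Its groups did not overlap, but the difference was small, at 0.15 (SE 0.06, adjusted p = 0.416). Hk2, the inducible isoform, differed by 0.13 (SE 0.23), and by -0.17 without LysM+/+ array 2, where it was lowest. Hk1, the widespread isoform, differed by 0.04 (SE 0.06) and showed the same value on 4 of the 7 arrays, which was also true on at least 3 arrays of Pdk1 and of 30% of all genes.

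Phosphofructokinase, the committed step, has 3 subunit genes, and these differed in direction. Pfkl, the liver-type subunit, had values of 7.38, 6.29 and 7.34 without cre and 8.18, 7.45, 7.50 and 7.58 with cre. The genotypes did not overlap, by a gap of 0.07, and the difference was 0.67 (SE 0.31, adjusted p = 0.459); without LysM+/+ array 2, its low array, it was 0.32. Pfkm, the muscle-type subunit, had values of 5.68, 5.40 and 5.61 without cre and 5.40, 5.44, 5.25 and 5.09 with cre. It was the only member lower at an unadjusted p under 0.05 (difference -0.27, SE 0.11, adjusted p = 0.433), and its lowest LysM+/+ value lay within the range of the other genotype. Without LysM+/+ array 2 its difference was -0.35 (SE 0.11) and its groups no longer overlapped. Pfkp, the platelet-type subunit, showed a difference of 0.03 (SE 0.25) that turned to -0.15 without LysM+/cre array 1. Aldoc, an aldolase that splits the phosphorylated sugar, differed by 0.02 (SE 0.14).

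The enzymes from triose phosphate to lactate carried most of the higher signal. Tpi1, which interconverts the triose phosphates, had values of 10.15, 9.56 and 9.61 without cre and 11.09, 10.19, 10.32 and 10.36 with cre. All 4 LysM+/cre arrays were above all 3 controls, with LysM+/cre array 1 highest, and the difference was 0.72 (SE 0.25, adjusted p = 0.408). Gapdh, the dehydrogenase that makes NADH, had values of 11.70, 11.34 and 11.53 without cre and 11.97, 11.79, 11.88 and 11.76 with cre. Its groups did not overlap either, with a difference of 0.33 (SE 0.10, adjusted p = 0.395). The 11 probe sets that list Gapdh, 8 of them together with a pseudogene, differed by 0.28 to 0.36, so reads of Gapdh and its copies are not separate here.

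Pgk1, the kinase that makes the first ATP of the pathway, had the largest difference among the enzymes. Pgk1 was at 9.13, 8.02 and 8.56 in the controls and at 9.78, 9.27, 9.49 and 9.21 with cre, with the lowest on LysM+/+ array 2 and no overlap. The difference was 0.87 (SE 0.27, adjusted p = 0.395), which is 1.83-fold; it was 0.59 without LysM+/+ array 2. Pgam1, a phosphoglycerate mutase, had values of 9.86, 8.60 and 9.34 without cre and 10.43, 9.88, 10.07 and 9.89 with cre. Its genotypes were separated by a gap of 0.02 only, and the difference was 0.80 (SE 0.29, adjusted p = 0.415) against 0.43 on its dimmer probe set; it was 0.47 without LysM+/+ array 2. Eno2, the neuron-type enolase, differed by 0.04 (SE 0.24), and by -0.27 without LysM+/+ array 2.

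The last steps went the same way. Pkm, pyruvate kinase, had values of 10.53, 9.87 and 10.18 without cre and 10.78, 10.60, 10.92 and 10.57 with cre. Its groups did not overlap, by a gap of 0.04, and the difference was 0.52 (SE 0.17, adjusted p = 0.400). Ldha, the lactate dehydrogenase subunit that favours lactate, had values of 8.14, 7.75 and 7.79 without cre and 8.66, 8.08, 8.14 and 8.30 with cre. LysM+/+ array 1 reached the LysM+/cre range, so the groups overlapped, and the difference was 0.40 (SE 0.17, adjusted p = 0.431). Without LysM+/+ array 2 the enzymes at an unadjusted p under 0.05 were Gapdh (0.23), Pgk1 (0.59) and Pfkm; without LysM+/cre array 1 they were Tpi1, Gapdh, Pgk1 and Pkm, and without both arrays Pfkm alone.

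**Figure D2:**
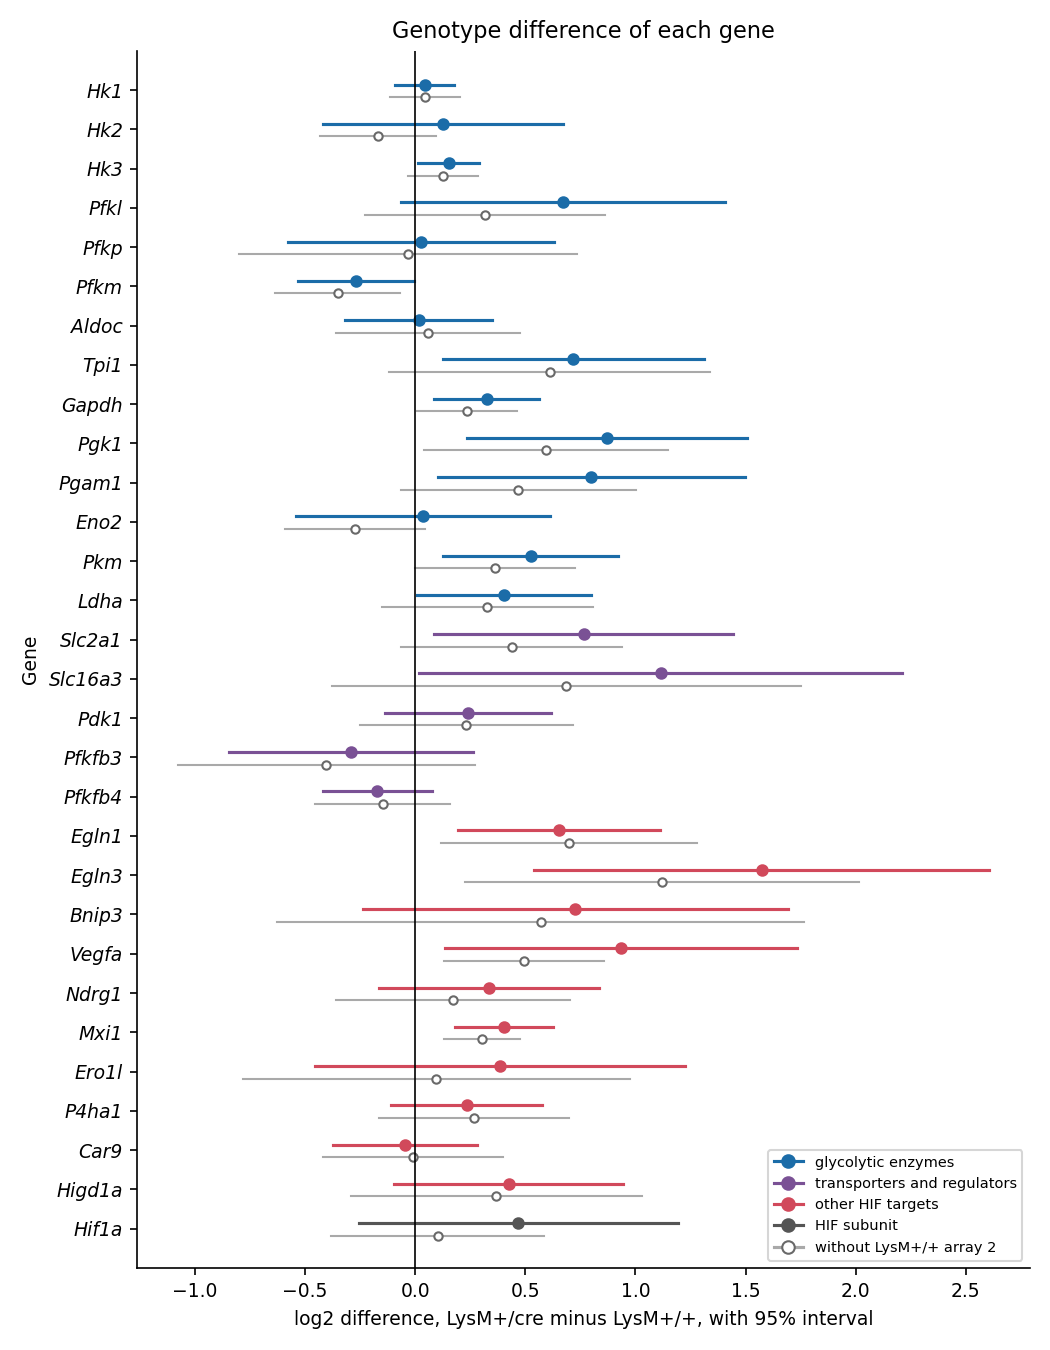
Points are log2 differences (LysM+/cre minus LysM+/+) with 95% intervals from limma; filled points use all 7 arrays, coloured by role, and open points leave out LysM+/+ array 2. Differences above 0 are seen for 26 members with all arrays and 23 without that array (52.1% of all genes), and most move toward 0 without it.

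Both membrane transporters on the list were higher with cre. Slc2a1, the glucose importer GLUT1, had values of 11.10, 10.01 and 10.87 without cre and 11.81, 11.12, 11.50 and 11.27 with cre. LysM+/+ array 1 came within 0.02 of the lowest LysM+/cre array, and the difference of 0.76 (SE 0.29, adjusted p = 0.415) was 0.44 without LysM+/+ array 2. Slc16a3, the lactate exporter MCT4, had values of 7.53, 6.06 and 7.16 without cre and 9.01, 7.54, 7.80 and 7.77 with cre. The difference was 1.11 (SE 0.46, adjusted p = 0.431), or 2.17-fold, with a gap of only 0.009 between the genotypes. Dropping LysM+/+ array 2, its lowest array, gave 0.69, dropping LysM+/cre array 1, its highest, 0.79, and dropping both 0.36. A probe set that also lists the neighbouring gene Csnk1d differed by 0.20. Neither transporter kept an unadjusted p under 0.05 without LysM+/+ array 2, LysM+/cre array 1, LysM+/cre array 3 or LysM+/cre array 4.

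The 3 regulators did not separate the genotypes. Pdk1, a kinase that inhibits pyruvate dehydrogenase in mitochondria, had values of 5.57, 5.63 and 5.73 without cre and 6.32, 5.73, 5.73 and 5.74 with cre. LysM+/cre array 1 alone was high, and the difference of 0.24 (SE 0.16, adjusted p = 0.590) was 0.09 without it. Pfkfb3 and Pfkfb4 make or remove the sugar bisphosphate that activates phosphofructokinase, and both had lower means with cre. Pfkfb3 had values of 9.75, 9.38 and 9.68 without cre and 9.06, 8.99, 9.92 and 9.27 with cre. LysM+/cre array 3 was the highest of all, against 3 low LysM+/cre arrays, and the difference was -0.29 (SE 0.23, adjusted p = 0.648). Without that array the difference was -0.49, at an unadjusted p under 0.05, and the groups did not overlap. Pfkfb4 was at 6.35, 6.51 and 6.54 without cre and at 6.40, 6.29, 6.07 and 6.41 with cre, so that the difference was -0.17 (SE 0.10, adjusted p = 0.556), or -0.096 without LysM+/cre array 3.

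Among the HIF targets outside glycolysis, the HIF hydroxylases, Vegfa and Mxi1 were higher with cre. Egln3 encodes a hydroxylase that marks HIF for destruction and is itself one of the most HIF-inducible genes. It had values of 6.68, 4.97 and 5.99 without cre and 8.13, 6.95, 7.31 and 7.42 with cre. All 4 LysM+/cre arrays lay above the controls, by a gap of 0.27, the widest of any member. Its difference, 1.57 (SE 0.44, adjusted p = 0.380), or 2.97-fold, was the largest of the members; it was 1.12 when LysM+/+ array 2 was dropped, and 0.89 when LysM+/cre array 1 was dropped with it. Egln1, the main oxygen-sensing hydroxylase, had values of 6.37, 6.55 and 6.45 without cre and 7.51, 6.63, 7.09 and 7.20 with cre. Its control arrays lay close together, the groups did not overlap, and the difference was 0.65 (SE 0.19, adjusted p = 0.394). LysM+/+ array 2 was the highest of its controls, so that the difference was 0.70 without it.

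Vegfa, the angiogenic growth factor, had values of 11.23, 10.07 and 11.56 without cre and 12.07, 11.66, 11.95 and 11.88 with cre. LysM+/+ array 2 was far below the rest. The difference of 0.94 (SE 0.34, adjusted p = 0.414) was 0.49 without that array, with a smaller SE (0.15). Mxi1, which encodes an antagonist of MYC, had values of 8.23, 7.93 and 8.23 without cre and 8.60, 8.56, 8.55 and 8.43 with cre. It had the smallest p of all members, with a modest difference of 0.40 (SE 0.09, adjusted p = 0.341), and 0.63 on its dimmer probe set. Without LysM+/+ array 2 its difference was 0.30 (SE 0.07), and without LysM+/cre array 1 as well it was 0.28 (SE 0.07).

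**Figure D3:**
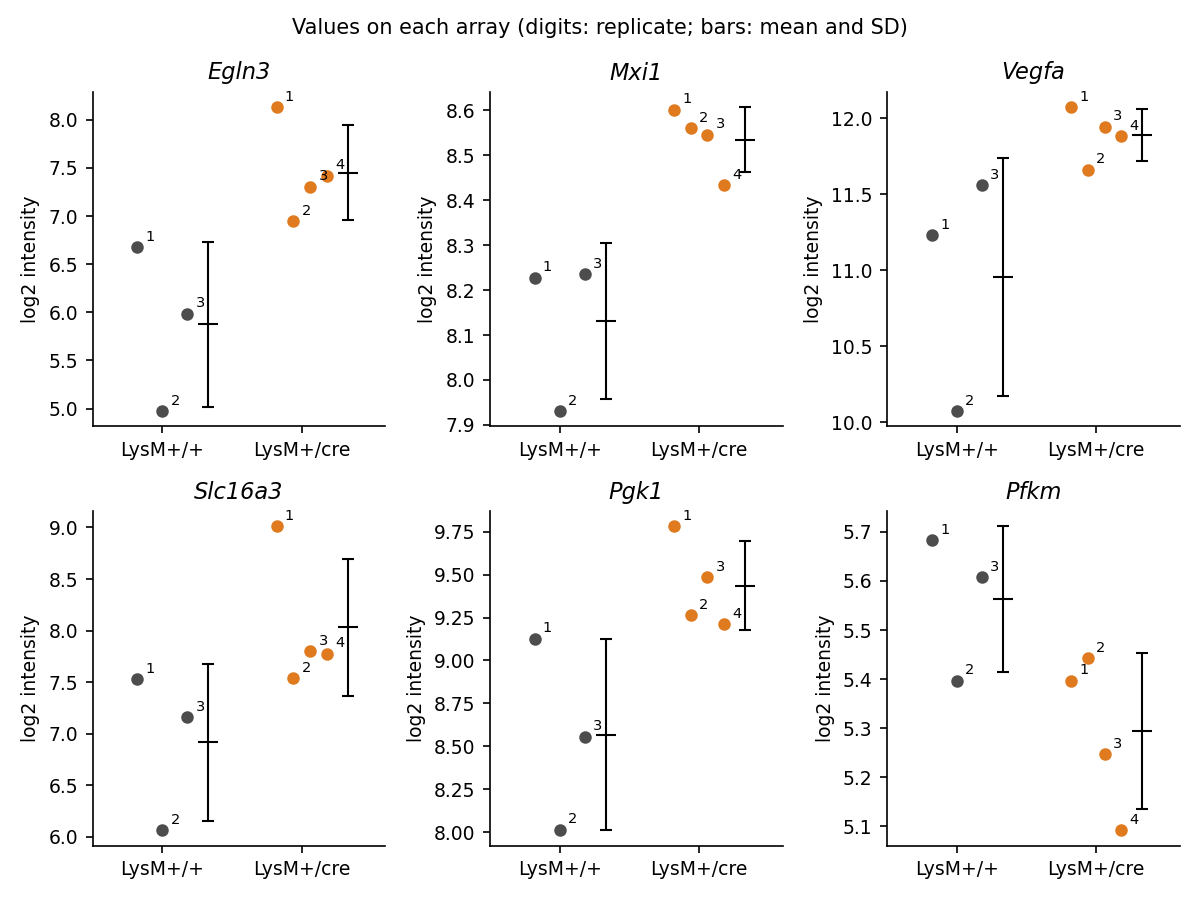
Points are log2 intensities on each array for 6 members (digits give the replicate number), with the mean and SD of each genotype beside them. In Egln3, Mxi1, Vegfa, Slc16a3 and Pgk1 the 4 LysM+/cre arrays lie above the 3 LysM+/+ arrays, while Pfkm is lower with cre and overlaps; each panel has its own axis, which does not start at 0.

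The remaining HIF targets overlapped between genotypes. Bnip3, which directs mitochondria to autophagy, had values of 7.04, 6.10 and 6.11 without cre and 7.88, 6.28, 7.32 and 7.10 with cre, at a difference of 0.73 (SE 0.41, adjusted p = 0.529). Higd1a, a mitochondrial protein gene, differed by 0.42 (SE 0.22, adjusted p = 0.499), with LysM+/cre arrays 1 and 2 at 7.30 and 7.02 and all others between 6.29 and 6.58. The endoplasmic reticulum oxidase gene Ero1l (Ero1a on the array) differed by 0.39 (SE 0.35), the stress-response gene Ndrg1 by 0.34 (SE 0.21) and the collagen prolyl hydroxylase gene P4ha1 by 0.23 (SE 0.14). LysM+/cre array 1 was the highest array for each of these 5 genes, and without it Bnip3 differed by 0.48, Higd1a by 0.26 and P4ha1 by 0.12. Without LysM+/+ array 2 the difference of Ero1l was 0.096 and that of Ndrg1 0.17, and without both arrays that of Ero1l was -0.13. Car9, the carbonic anhydrase often used as a marker of hypoxia, differed by -0.05 (SE 0.14), with LysM+/cre values of 5.58 to 5.64 inside the LysM+/+ range of 5.32 to 5.93. Its dimmer probe set differed by 0.28.

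Hif1a was bright and overlapped between genotypes. The controls were at 10.60, 9.60 and 10.80 and the LysM+/cre arrays at 10.77, 10.58, 11.22 and 10.64. LysM+/+ array 2 was the only low array, and the difference of 0.47 (SE 0.30, adjusted p = 0.582) was 0.10 without it. These are transcript levels; HIF protein, which is set mainly by its degradation, was not measured here.

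The comparison of glycolytic enzymes with the other HIF targets had the smaller difference on the enzyme side. The median difference was 0.24 over 14 enzymes, with 13 above 0, and 0.41 over 10 HIF targets, with 9 above 0, so that the enzymes lay 0.17 below. No test was made of this gap, since the genes of a group are not replicates. Without LysM+/+ array 2 the medians were 0.18 and 0.34, without LysM+/cre array 1 they were 0.21 and 0.32, and without both arrays 0.13 and 0.24. The enzyme median was 0.15 without Gapdh and 0.38 without LysM+/+ array 1. In each of these settings the enzymes had the lower median.

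Counts at an unadjusted p under 0.05 were set side by side for the enzymes and the other HIF targets, with no test of a difference between them. Of the enzymes, 7 were higher and 1 lower at that level with all arrays, 2 and 1 when LysM+/+ array 2 was dropped, 4 and 0 when LysM+/cre array 1 was dropped, and 0 and 1 without both. Of the HIF targets, 4 were higher with all arrays (Egln1, Egln3, Vegfa and Mxi1), and these were the 4 without LysM+/+ array 2 and also without both arrays; without LysM+/cre array 1 they were Egln1, Egln3 and Mxi1. With LysM+/cre array 3 dropped 5 enzymes and 3 HIF targets were higher, where 10.5% of all genes lay at that level in either direction. With LysM+/cre array 4 dropped they were 5 and 4, where 8.53% of all genes did. Over all genes, 5.46% were higher and 4.51% lower at that level with LysM+/+ array 2 dropped, 4.40% and 3.23% with LysM+/cre array 1 dropped, and 4.15% and 3.57% without both. Dropping arrays cannot make separate groups overlap, so the members without overlap could not become fewer. The enzymes Pfkm and Eno2 joined them in the lower direction when LysM+/+ array 2 or both arrays were dropped (7.84% and 9.27% of all genes).

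Per array, the mean deviation of the enzymes from their gene means was 0.06, -0.48 and -0.11 on the LysM+/+ arrays and 0.36, 0.02, 0.09 and 0.08 on the LysM+/cre arrays. LysM+/+ array 1 lay among the LysM+/cre arrays, so the enzyme levels overlapped. The other HIF targets gave -0.13, -0.63 and -0.21 without cre and 0.62, -0.05, 0.19 and 0.19 with cre, which did not overlap, by 0.08. The enzyme deviation minus that of the HIF targets was 0.18, 0.15 and 0.09 without cre and -0.27, 0.06, -0.11 and -0.11 with cre. The HIF targets thus varied over a wider range, and lay further out than the enzymes on LysM+/+ array 2 as well as on LysM+/cre array 1. On LysM+/cre array 1, 9 of the 10 HIF targets had their highest value, as did 8 of the 14 enzymes. LysM+/+ array 2 was the lowest array for 7 of the 10 and for 10 of the 14.

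Correlations between members over the 7 arrays spread widely, and describe arrays in which genotype and the 2 end arrays are shared by all genes. The median was 0.41 over 91 pairs of enzymes (-0.69 to 0.998), 0.64 over 45 pairs of HIF targets (-0.57 to 0.92) and 0.60 over 140 pairs of 1 enzyme and 1 HIF target (-0.71 to 0.98). The same over all gene pairs was not computed. The members most like the mean of the other enzymes were Slc16a3 (r = 0.985), Slc2a1 (0.983), Pgam1 (0.977), Pfkl (0.976) and Egln3 (0.970), 3 of them no enzymes. Car9 (-0.433), Pfkfb4 (-0.419), Pfkm (-0.204) and Pfkfb3 (-0.173) ran against it.

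Among markers of other cells, the mean of the monocyte list followed both end arrays, but its genes were not alike. The neutrophil list followed only LysM+/+ array 2 (mean deviation -1.33). The epithelial list followed neither, at 0.63 on LysM+/+ array 2 and -0.28 on LysM+/cre array 1. All 5 measured monocyte markers had higher means with cre (median 1.07). They deviated on average by -0.50, -1.16 and -0.32 on the control arrays and by 0.96, 0.19, 0.27 and 0.56 on the LysM+/cre arrays. By gene, LysM+/+ array 2 was lowest for 3 of the 5, and LysM+/+ array 1 for 2, Ly6c2 and Ccr2. LysM+/cre array 1 was highest for 3. Chil3 weighed most on LysM+/+ array 2, at 3.34 there and between 5.25 and 9.56 elsewhere. Ccr2 was at 8.21 on LysM+/+ array 2 and at 6.21 on LysM+/+ array 1. The summed linear intensity of the 5 markers was 760 to 1142 without cre and 1365 to 2919 with cre. Ly6c2, which encodes the antigen that the gate left out, had values of 6.87, 7.15 and 7.70 without cre and 9.30, 7.69, 7.87 and 8.48 with cre, so that the difference was 1.09 (SE 0.41, adjusted p = 0.415). All 12 neutrophil markers had higher means with cre too (median 0.51, 8 of 12 and 0.15 without LysM+/+ array 2), with summed intensities of 2829 to 5688 and 5645 to 9439. They were highest on LysM+/cre array 3 (mean deviation 1.497) and at -0.40 on LysM+/cre array 1. Il1r2, the brightest, weighed most in the sums, at 11.23, 10.63 and 11.71 without cre and 12.40, 11.71, 11.61 and 11.62 with cre. On LysM+/cre array 1, where Il1r2 was highest, the sum was 7605 although the mean deviation was below 0. Of the defining neutrophil genes, Camp lay below the median of all probe sets (5.19) on every array.

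Of 11 fibroblast and smooth muscle markers 9 were lower with cre (median -0.35), with sums of 3211 to 5320 without cre and 1746 to 2709 with cre. The sums were dominated by Dcn, the brightest, at 11.93, 10.94 and 11.47 without cre and 9.64, 10.45, 10.01 and 10.17 with cre. The mean deviations of the list overlapped, at 0.39, 0.11 and 0.24 without cre and -0.36, 0.12, -0.26 and -0.23 with cre. All 12 epithelial markers were lower (median -0.30, and 8 of 12 without LysM+/+ array 2), with sums of 1716 to 6748 and 2272 to 4808. The 10 macrophage and gate genes were at sums of 31130 to 35374 and 30120 to 37201, with 6 above 0 and a median of 0.04 (8 and 0.23 without LysM+/+ array 2), and they differed among themselves. Fcgr1, which encodes the gate antigen CD64, had values of 10.28, 9.49 and 9.49 without cre and 11.10, 10.78, 10.28 and 10.75 with cre (difference 0.97, SE 0.26, adjusted p = 0.362). It was highest on LysM+/cre array 1 and lowest on LysM+/+ array 2, at 9.490 there against 9.492 on LysM+/+ array 3. The list as a whole did not share this pattern. LysM+/+ array 2 was the highest array for 5 of the 10 genes and the lowest for 2, and LysM+/cre array 1 was the highest for 1 and the lowest for 2. Itgam (CD11b) was at 0.53 (SE 0.19), and Cd68, a lysosomal macrophage marker, at -0.20 (SE 0.08) without overlap. The part of monocytes, neutrophils, stromal cells and gate genes in the member differences was not tested.

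**Figure D4:**
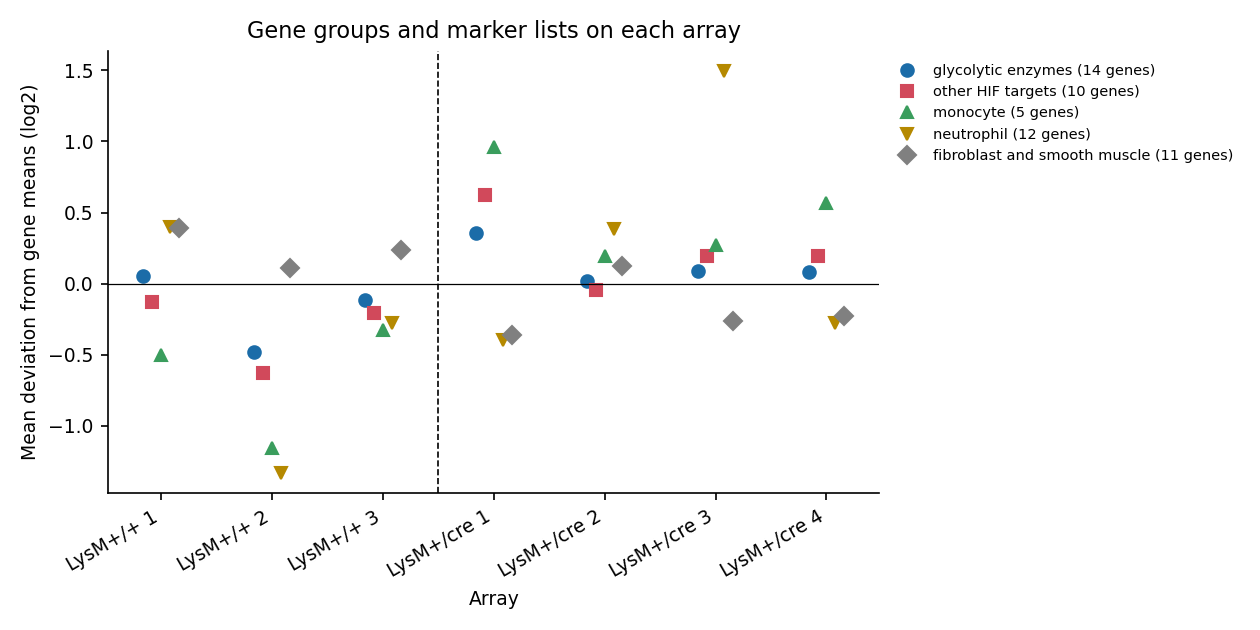
Points are the mean log2 deviation from the gene means over 7 arrays, per array, for glycolytic enzymes, other HIF targets and 3 marker lists; the dashed line parts the genotypes. Enzymes, HIF targets and monocyte markers are lowest on LysM+/+ array 2 and highest on LysM+/cre array 1, whereas neutrophil markers peak on LysM+/cre array 3.

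With all arrays, 6 lists of neighbouring genes had smaller median differences than the enzymes, and no test compared the lists. Of 6 measured pentose phosphate genes, 2 were higher and 1 lower at an unadjusted p under 0.05, with a median difference of 0.14; over all genes 6.56% were higher and 4.93% lower at that level, as for each list that follows. Taldo1, transaldolase, had values of 9.46, 9.31 and 9.38 without cre and 10.01, 9.59, 9.93 and 9.72 with cre (difference 0.43, SE 0.11, adjusted p = 0.362). Pgd, which makes NADPH, differed by 0.47 (SE 0.13) and likewise did not overlap, while the endoplasmic reticulum enzyme gene H6pd differed by -0.27 (SE 0.11). Of 9 glycogen and gluconeogenesis genes, 2 were higher at that level and 0 lower (median 0.18): Pygl, liver-type glycogen phosphorylase, at 0.78 (SE 0.28) and Pgm2, a phosphoglucomutase, at 0.31 (SE 0.13). Ugp2, which makes the glucose donor for glycogen, was at 0.22 (SE 0.12). Without LysM+/+ array 2 the medians were 0.18 for the pentose phosphate list and 0.24 for the glycogen list, no lower than that of the enzymes (0.18). LysM+/cre array 1 was the highest array for 3 of the 6 and 4 of the 9 genes.

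Of 12 genes of pyruvate entry and lactate, 2 were higher and 1 lower at that level (median 0.17). They were 2 further kinases of pyruvate dehydrogenase, Pdk3 at 0.65 (SE 0.22) and Pdk2 at -0.36 (SE 0.11), and Ldhb, the other lactate dehydrogenase subunit, at 0.38 (SE 0.15). LysM+/cre array 1 was the highest array for 7 of the 12. Other isozymes and side steps of glycolysis had 0 higher and 2 lower of 14 (median -0.03). Eno3, the muscle-type enolase, had values of 7.21, 7.53 and 7.88 without cre and 7.05, 6.97, 6.79 and 6.92 with cre (difference -0.61, SE 0.15, adjusted p = 0.361). Slc2a3, the glucose importer GLUT3, had values of 6.73, 7.21 and 6.98 without cre and 6.47, 6.24, 5.54 and 6.15 with cre (difference -0.87, SE 0.23, adjusted p = 0.362), opposite in direction to Slc2a1. Adpgk, a kinase that phosphorylates glucose with ADP, was at 0.25 (SE 0.13).

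Within the HIF system, 2 of 11 genes were higher and 2 lower at an unadjusted p under 0.05 (median 0.09). Egln2, the third HIF prolyl hydroxylase, was at 8.44, 8.18 and 8.18 without cre and at 8.57, 8.59, 8.57 and 8.49 with cre, so that the difference was 0.29 (SE 0.08, adjusted p = 0.391). Hif1an, the asparagine hydroxylase that blunts HIF activity, differed by 0.72 (SE 0.27) with overlap. Cited2, a competitor of HIF for its coactivators, had values of 9.68, 9.88 and 10.52 without cre and 8.88, 9.37, 9.48 and 9.24 with cre (difference -0.78, SE 0.23, adjusted p = 0.394). Hif3a, an alpha subunit with inhibitory forms, differed by -0.34 (SE 0.12).

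A further list of HIF targets went neither way. Of its 27 measured genes 14 were above and 13 below 0, with a median of 0.01, and 1 was higher and 3 lower at an unadjusted p under 0.05. Adm, which encodes the vasoactive peptide adrenomedullin, had values of 7.83, 6.99 and 7.94 without cre and 5.43, 6.45, 6.67 and 6.005 with cre. Its arrays did not overlap, and its difference of -1.45 (SE 0.35, adjusted p = 0.354) was about as far below 0 as that of Egln3 was above it; on LysM+/cre array 1, where most members were highest, Adm was lowest. Mif, a macrophage cytokine gene, was at 0.57 (SE 0.20), Wsb1, a ubiquitin ligase gene, at -0.26 (SE 0.10) and the nuclear receptor gene Rora at -0.15 (SE 0.06). The 10 HIF targets outside glycolysis on the member list had a median of 0.41 against 0.01 here, and the lists were not tested against each other.

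**Figure D5:**
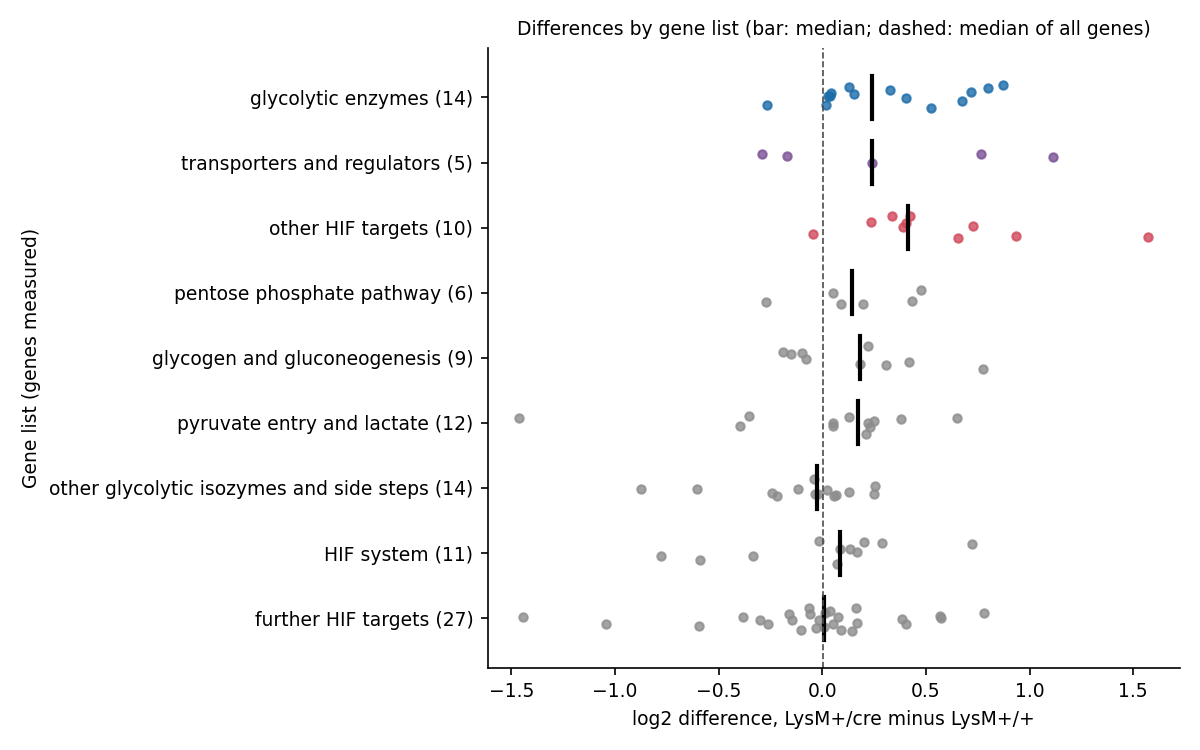
Each point is the log2 difference of 1 gene (LysM+/cre minus LysM+/+), by list, with the list's median as a bar and the median of all genes dashed. The medians are 0.24 for the enzymes and 0.41 for the other HIF targets on the member list, and lie between -0.03 and 0.18 for the 6 lists of neighbouring genes.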

How the data were processed

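The authors deposited a log2 intensity for each probe set, and the 7 arrays had lower quartiles of 3.88 to 3.92 and upper quartiles of 6.74 to 6.77. Per the series' design text Affymetrix Expression Console made the values, and the submitters' processing notes also name Transcriptome Analysis Console. Versions, summarisation and background correction are not stated there. Normalization between arrays before deposit would hide any shift common to all genes. Gene names came from the platform annotation: of 41345 probe sets, 23521 had 1 symbol, 1814 several and 16010 none. Ero1l was matched through its RefSeq synonym. Dim probe sets were kept. All 22180 genes were fitted with limma 3.58.1 (lmFit and eBayes) in R 4.3.3, two-sided, without covariates, with p-values adjusted over all genes (Benjamini-Hochberg, threshold 0.05). The members, the gene and marker lists and the tests were chosen with earlier results of these data known. All measured members were to be named, with values on each array for those at an unadjusted p under 0.05, the 3 of smallest p in each role group and Hif1a, and from each further list the 3 genes of smallest p; beyond that rule, Hif1an, Rora, the marker genes, and the values on each array of Pfkl, Pdk1, Pfkfb3 and Bnip3 were chosen after their values were seen. On 20 simulated data sets of 22180 genes for this comparison, with 200 changed genes, 75.4% of 2-fold and 95.8% of 4-fold changes were recovered and 5.65% of calls were false. The simulated noise was drawn independently for each gene, with no shift shared by the genes of an array. Such shared shifts are seen in the real arrays, so these shares do not give the recovery there. Same-numbered arrays of the genotypes deviated together only weakly (r = -0.11, 0.12 and 0.10), so the numbers were taken as names. As alternatives, array medians were set equal, quantiles were normalized, dim genes were left out, a gene's probe sets were averaged, the variance model was changed, arrays were weighted, a replicate block was fitted, and arrays were dropped. Plots were drawn with matplotlib 3.10.9.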

Additional observations from a re-analysis of the deposited data

Results flagged for a closer look

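Pdk1 on LysM+/cre array 1 stood apart from the other arrays of its genotype. Its log2 intensity was 6.3206 there and lay between 5.7312 and 5.7413 on the other 3, so that the gap to the nearest was 0.983 of the whole range. Among 30 members tested in this way chance alone would mark about 1 in 20, and 1 was marked. LysM+/cre array 1 was also the highest array for 20 of the 30 members.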

How the results depend on the processing

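No member reached an adjusted p under 0.05 under any of the 14 planned settings, nor without LysM+/+ array 2 and LysM+/cre array 1 together. Of 420 differences of single members under the 14 planned settings, 405 kept their sign and 15 turned. In all 14 settings 25 of 30 members kept their sign. Changing the variance model or leaving out dim genes cannot alter a member's difference, so no sign could turn there. Without the 2 arrays together Ero1l, which is among these 25, was at -0.13. With single arrays dropped, Hk2 lay between -0.17 and 0.34, Pfkp between -0.15 and 0.19, Aldoc between -0.089 and 0.12, Eno2 between -0.27 and 0.23, and Car9 between -0.22 and 0.089. Pfkp was at -0.023 after quantile normalization, and Car9 at 0.12 with the mean of its probe sets. LysM+/cre array 4 has no same-numbered control, so a replicate block takes it out of the comparison. The block thus gave the same differences as dropping that array, and was no separate check of direction. Only the spread behind its p-values differed. With a replicate block Pfkp was at -0.049 and Eno2 at -0.00076, 15 members lay at an unadjusted p under 0.05 (9.64% of all genes), and the medians were 0.25 for enzymes and 0.50 for other HIF targets; the block changed no call at the adjusted threshold, Hk3, Pfkm and Egln1 were no longer at that unadjusted level, and Pfkl, Bnip3, Ero1l and Higd1a had come to it. The members at an unadjusted p under 0.05 numbered 7 to 15 with single arrays dropped, and 5 without the 2 arrays together. With single arrays dropped the enzyme median ranged from 0.18 to 0.38, that of the HIF targets from 0.32 to 0.53, and the first minus the second from -0.26 to -0.11. That gap was -0.28 with the mean of a gene's probe sets, -0.26 without Gapdh and -0.11 without the 2 arrays together, where the medians were 0.13 and 0.24. The cause of these shifts was not tested. Pfkm and Car9 were dim, at means of 5.41 and 5.64 over the 7 arrays, close to the median probe set at 5.19. Any part of low signal in the size of member differences was not tested.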
